A study of Mus musculus with 6 samples.

Results

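The genes for the VEGF, PDGF and angiopoietin ligands were examined in the transected Achilles tendon of neonatal mice. The set was chosen by gene name from the 3 ligand families and holds 10 of the 18099 genes in the expression table, namely *Vegfa*, *Vegfb*, *Vegfc*, *Pgf*, *Pdgfa*, *Pdgfb*, *Pdgfc*, *Pdgfd*, *Angpt1* and *Angpt2*. RNA sequencing compared 3 *LysM-Cre; Ampkα1 fl/fl* mice (the LysM-Cre group) with 3 littermates that carried *Ampkα1 fl/fl* without Cre (the control group). Both groups had floxed *Ampkα1* alleles and a transected tendon, and the tissue was taken 7 days later. The day is taken from the study's text, which describes neonatal mice as injured at 0-1 days of age. Cre is driven by the *Lyz2* locus, which is active in macrophages, neutrophils and other myeloid cells, and the RNA was that of whole repair tissue. The comparison asks whether ligand transcripts of the whole tissue differed when *Ampkα1* was deleted in myeloid cells. In such bulk samples, fewer cells of a type and less RNA per cell cannot be told apart.

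The VEGF ligands act on endothelial cells through the receptor tyrosine kinases FLT1, KDR and FLT4, with the neuropilins as co-receptors. PDGF dimers recruit and expand mural cells and fibroblasts through PDGFRA and PDGFRB. ANGPT1 activates the endothelial receptor TEK and stabilizes vessels, and ANGPT2 competes with it at the same receptor and is released where vessels are remodelled. Tendon is a poorly vascularized tissue, and vessels grow into it after injury.

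The VEGF ligands are made in splice forms that differ in how tightly they hold to the matrix, so the alternative coding parts of *Vegfa* and *Vegfb* are shown first. The *Vegfa* forms are printed from coding exon 5 to the end of the last coding exon, 5′ to 3′, with exons 6 and 7 in capitals where present. These exons encode the basic stretches that bind heparan sulphate. All 3 forms span chr17:46018861-46024094 on the minus strand of GRCm38.
With exons 6 and 7: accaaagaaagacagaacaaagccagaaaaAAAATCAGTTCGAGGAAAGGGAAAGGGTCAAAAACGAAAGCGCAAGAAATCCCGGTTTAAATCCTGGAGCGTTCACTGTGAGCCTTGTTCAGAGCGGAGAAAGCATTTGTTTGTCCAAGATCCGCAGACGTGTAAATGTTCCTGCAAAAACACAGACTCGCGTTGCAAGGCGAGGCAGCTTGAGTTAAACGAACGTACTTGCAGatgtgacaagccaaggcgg
With exon 7 only: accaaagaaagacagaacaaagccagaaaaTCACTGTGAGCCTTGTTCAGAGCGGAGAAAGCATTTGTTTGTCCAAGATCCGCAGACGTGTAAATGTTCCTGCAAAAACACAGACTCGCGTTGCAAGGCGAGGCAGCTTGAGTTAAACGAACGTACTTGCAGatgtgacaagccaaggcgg
With neither exon: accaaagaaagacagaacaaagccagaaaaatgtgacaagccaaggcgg

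*Vegfb* ends in 2 ways, from alternative splice sites in its last coding exons, also on the minus strand. The first form (chr19:6985386-6985596) has a longer coding exon and the second (chr19:6982849-6985495) continues into a later coding exon. Capitals mark the bases that are not coding sequence in the other form. Whether the other form's transcript holds them outside its coding part is not shown.
First form: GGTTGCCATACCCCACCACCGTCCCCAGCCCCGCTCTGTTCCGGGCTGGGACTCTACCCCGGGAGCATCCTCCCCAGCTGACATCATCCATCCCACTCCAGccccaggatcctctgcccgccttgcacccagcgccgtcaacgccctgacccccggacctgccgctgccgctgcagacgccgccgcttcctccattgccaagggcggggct
Second form: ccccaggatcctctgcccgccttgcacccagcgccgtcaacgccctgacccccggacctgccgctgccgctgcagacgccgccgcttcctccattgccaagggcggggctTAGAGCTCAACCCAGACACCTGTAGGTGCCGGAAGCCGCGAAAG

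The 10 genes are spread over 8 chromosomes of GRCm38.p6. *Vegfa* lies at chr17:46016993-46032377, *Vegfb* at chr19:6982472-6987651 and *Pgf* at chr12:85166637-85177785. *Vegfc* (chr8:54077532-54186454) shares its chromosome with *Angpt2* (chr8:18690263-18741562), and *Pdgfb* (chr15:79995865-80024614) with *Angpt1* (chr15:42424667-42676977). *Pdgfa* lies at chr5:138976014-139000792, *Pdgfc* at chr3:81036416-81214040 and *Pdgfd* at chr9:6168363-6534284.

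The libraries held between 18170067 and 18858369 reads assigned to genes in the control group and between 18076805 and 19479887 in the LysM-Cre group. *Lyz2*, the gene into which the Cre cassette is inserted, had 7378, 7778 and 7372 reads in the control libraries and 9, 15 and 8 in the LysM-Cre libraries. The groups therefore also differed in *Lyz2* itself, and the loss of *Lyz2* and the deletion of *Ampkα1* cannot be told apart as sources of a difference. *Prkaa1*, which encodes AMPKα1, was at 39.2, 37.6 and 37.8 CPM (reads scaled to a common library total) in control and 32.6, 40.6 and 35.2 CPM in LysM-Cre libraries, and its groups overlapped. *Prkaa1* is transcribed by most cells of the tissue, and the table gives reads per transcript, not per floxed exon. Tendon markers such as *Col1a1* and *Tnmd* were abundant in every library, with a summed level of 8 markers between 59403 and 68046 CPM. Skeletal muscle RNA stood apart between libraries. The summed level of 10 muscle markers was 176, 547 and 3021 CPM in control replicates 1 to 3 and 3270, 1021 and 8831 CPM in LysM-Cre replicates 1 to 3.

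None of the 10 ligand genes differed between the groups by the edgeR quasi-likelihood test with Benjamini-Hochberg adjustment over 14261 genes. The number with an adjusted p under 0.05 was 0 of 10, beside 128 of all genes tested, or 0.898%. At an unadjusted p under 0.05 it was also 0 of 10, beside 14.5% of all genes. DESeq2 called 0 of 10 as well, beside 4.77% of all genes. Of the log2 fold changes (LysM-Cre over control), 7 were positive and 3 negative, with a median of 0.07 beside -0.002 for all genes. The 95% intervals ran from -0.86 at the lowest end to 0.63 at the highest. The ligand genes had between 100 and 1392 reads in a library, and all 10 passed the filter on low counts.

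**Figure D1:**
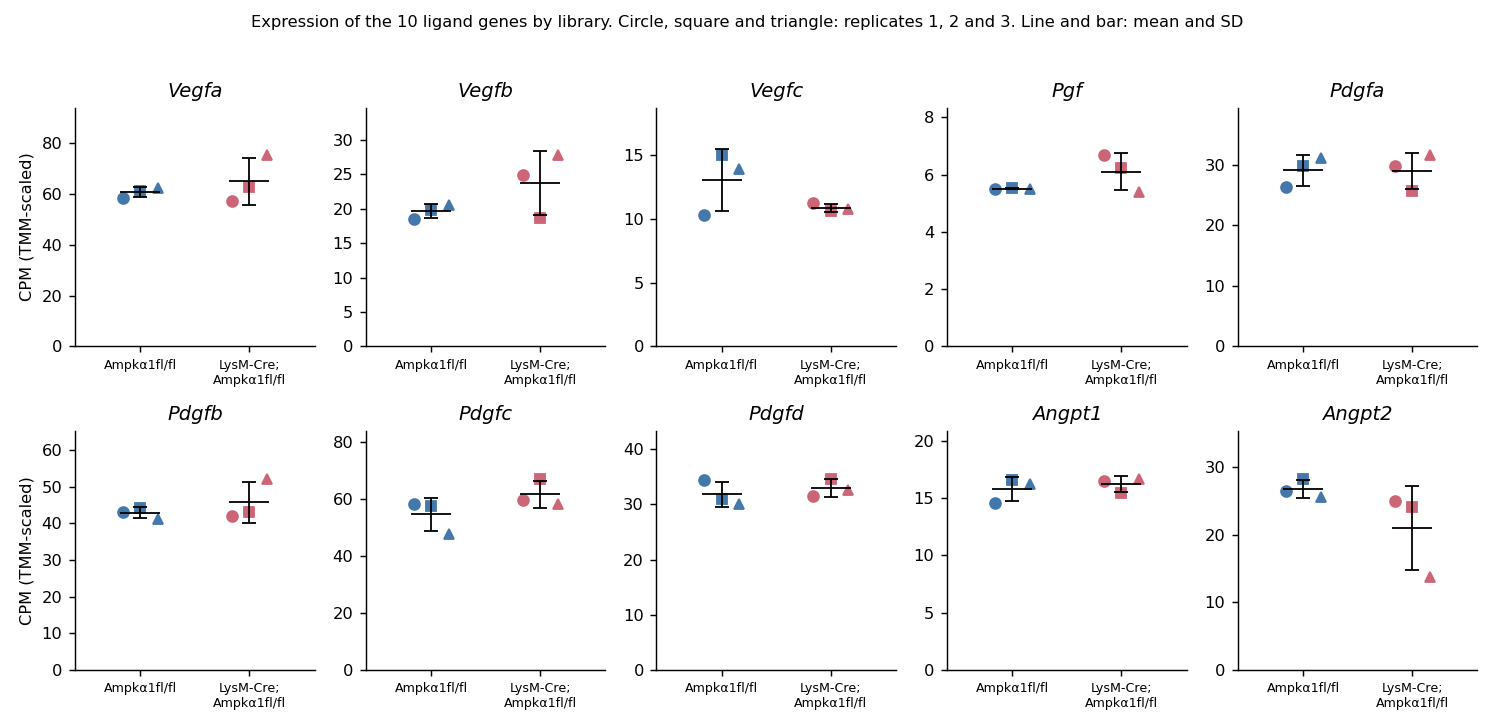
Expression of the 10 ligand genes in CPM (vertical axes from 0) in the 3 control and 3 LysM-Cre libraries, with 1 symbol per replicate and a line and bar for mean and SD. The groups overlap for 9 genes, and the LysM-Cre replicate 3 (triangle) is the highest of the 6 for *Vegfa*, *Vegfb*, *Pdgfa*, *Pdgfb* and *Angpt1* and the lowest for *Pgf* and *Angpt2*.

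Among the VEGF ligands, *Vegfa*, the main driver of vessel sprouting, was at 58.5, 61.4 and 62.3 CPM in the control libraries and at 57.3, 62.6 and 75.2 CPM in the LysM-Cre libraries. The groups overlapped, with LysM-Cre replicate 1 under the controls, replicate 2 just above them and replicate 3 well above. The log2 fold change was 0.10 ± 0.10 (SE, n = 3 per group; edgeR adjusted p = 0.714). *Vegfb*, a FLT1 ligand linked to fatty acid handling and vessel survival more than to sprouting, was at 18.5, 19.8 and 20.6 CPM in control and at 24.9, 18.6 and 27.8 CPM in LysM-Cre libraries. LysM-Cre replicates 1 and 3 lay above all controls, while replicate 2 lay among them. Its log2 fold change of 0.28 ± 0.15 was the largest positive one of the set (edgeR adjusted p = 0.457).

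*Vegfc*, the lymphatic growth factor that signals through FLT4, was at 10.3, 15.0 and 13.9 CPM in control and at 11.2, 10.6 and 10.8 CPM in LysM-Cre libraries. The 3 LysM-Cre values lay close together and control replicate 1 lay just under them, so the groups overlapped. The log2 fold change was -0.26 ± 0.15 (edgeR adjusted p = 0.484). *Pgf*, placental growth factor, which binds FLT1, was at 5.50, 5.52 and 5.48 CPM in control and at 6.68, 6.22 and 5.41 CPM in LysM-Cre libraries. The control values were nearly equal, and LysM-Cre replicate 3 lay under all of them while the other two lay above. With 100 to 128 reads a library it was the ligand gene with the fewest reads, and its log2 fold change was 0.15 ± 0.13 (edgeR adjusted p = 0.669).

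Among the PDGF ligands, *Pdgfa*, which encodes the chain that acts mainly through PDGFRA, was at 26.2, 29.8 and 31.1 CPM in control and at 29.7, 25.7 and 31.6 CPM in LysM-Cre libraries. The group means of 29.1 ± 2.53 and 29.0 ± 2.98 CPM (SD, n = 3 each) were nearly the same, and the 95% interval of the fold was 0.84 to 1.18 (edgeR adjusted p = 0.997). *Pdgfb*, the chain by which endothelium recruits pericytes through PDGFRB, was at 43.2, 44.2 and 41.3 CPM in control and at 42.0, 43.0 and 52.2 CPM in LysM-Cre libraries. Only LysM-Cre replicate 3 exceeded the controls, and the log2 fold change was 0.09 ± 0.09 (edgeR adjusted p = 0.710).

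*Pdgfc* and *Pdgfd* encode latent ligands whose CUB domain must be cleaved off before they bind a receptor. *Pdgfc* was at 58.3, 57.4 and 47.6 CPM in control and at 59.5, 67.0 and 58.2 CPM in LysM-Cre libraries. LysM-Cre replicate 3 lay just under control replicate 1, the only value by which the groups overlapped, and the log2 fold change was 0.18 ± 0.10 (edgeR adjusted p = 0.462). *Pdgfd* was at 34.4, 31.0 and 30.0 CPM in control and at 31.6, 34.7 and 32.7 CPM in LysM-Cre libraries. Its groups overlapped over most of their range, and the log2 fold change was 0.05 ± 0.08 (edgeR adjusted p = 0.822).

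Of the angiopoietins, *Angpt1* was at 14.6, 16.6 and 16.3 CPM in control and at 16.5, 15.4 and 16.7 CPM in LysM-Cre libraries. The groups overlapped, with a log2 fold change of 0.04 ± 0.09 (edgeR adjusted p = 0.895). *Angpt2* was at 26.4, 28.2 and 25.6 CPM in control and at 24.9, 24.1 and 13.7 CPM in LysM-Cre libraries. It was the only ligand gene whose groups did not overlap, beside 20.4% of all genes whose groups did not overlap in either direction and 11.4% that were lower in all LysM-Cre libraries. LysM-Cre replicates 1 and 2 lay just under the controls and replicate 3 far under them. The log2 fold change of -0.35 ± 0.21 did not pass the test (edgeR adjusted p = 0.511), and without LysM-Cre replicate 3 it was -0.13. An exact two-sided permutation test over the 6 libraries gave p = 0.1, the smallest value that 3 against 3 can give.

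**Figure D2:**
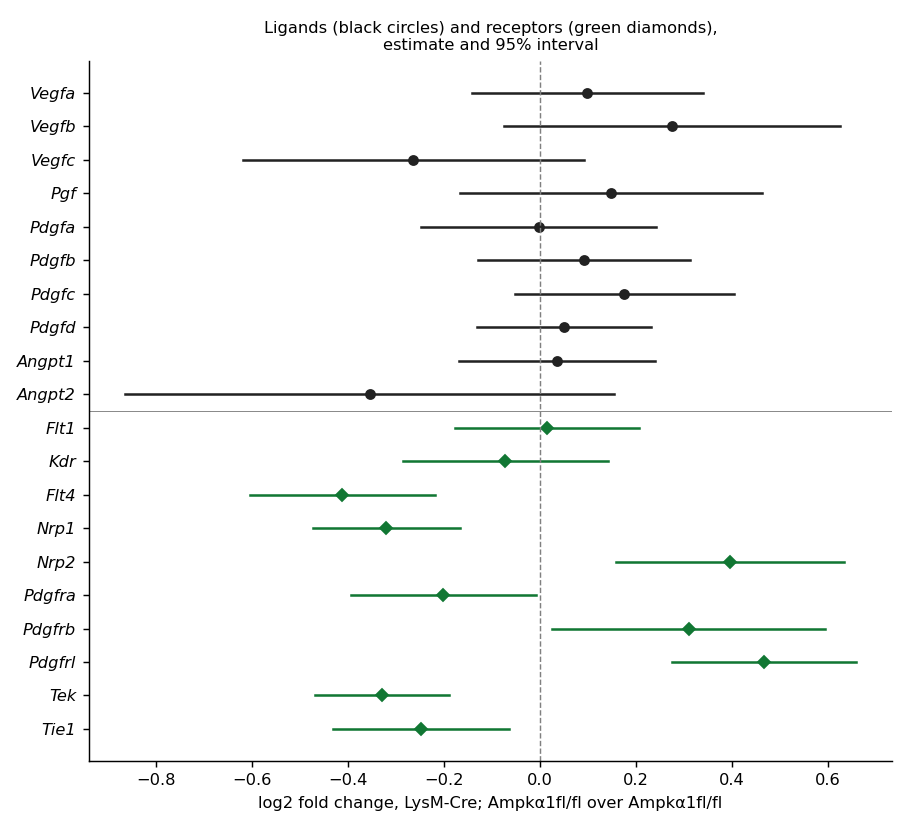
Log2 fold change (horizontal axis, LysM-Cre over control, 3 libraries each) with its 95% interval for the 10 ligand genes (black circles) and 10 receptor genes (green diamonds). All 10 ligand intervals include 0. The intervals of 8 receptor genes do not, beside 14.5% of all genes with an unadjusted p under 0.05, although 0 receptor genes passed the adjusted threshold.

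LysM-Cre replicate 3 was also the library with the most muscle RNA and the least RNA of mural cells, the pericytes and smooth muscle of vessel walls. All 10 muscle markers had a positive log2 fold change, with a median of 1.82, but 0 of 10 were called at an adjusted p under 0.05 and 0 at an unadjusted one. None of the muscle markers was at 0 in a library. With the muscle level as a covariate in edgeR, the log2 fold change was 0.06 for *Vegfb*, 0.00 for *Vegfa*, -0.17 for *Angpt2*, -0.38 for *Vegfc* and 0.33 for *Pdgfc*, and none was called. The 8 mural markers summed to between 1199 and 1276 CPM in control and between 896 and 1034 CPM in LysM-Cre libraries. All 8 had a negative log2 fold change, with a median of -0.34. Of these, 5 had an unadjusted p under 0.05, beside 14.5% of all genes, and 0 were called. None of the mural markers was at 0 in all libraries. The part of either cell type in the ligand values was not tested beyond the covariate.

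**Figure D3:**
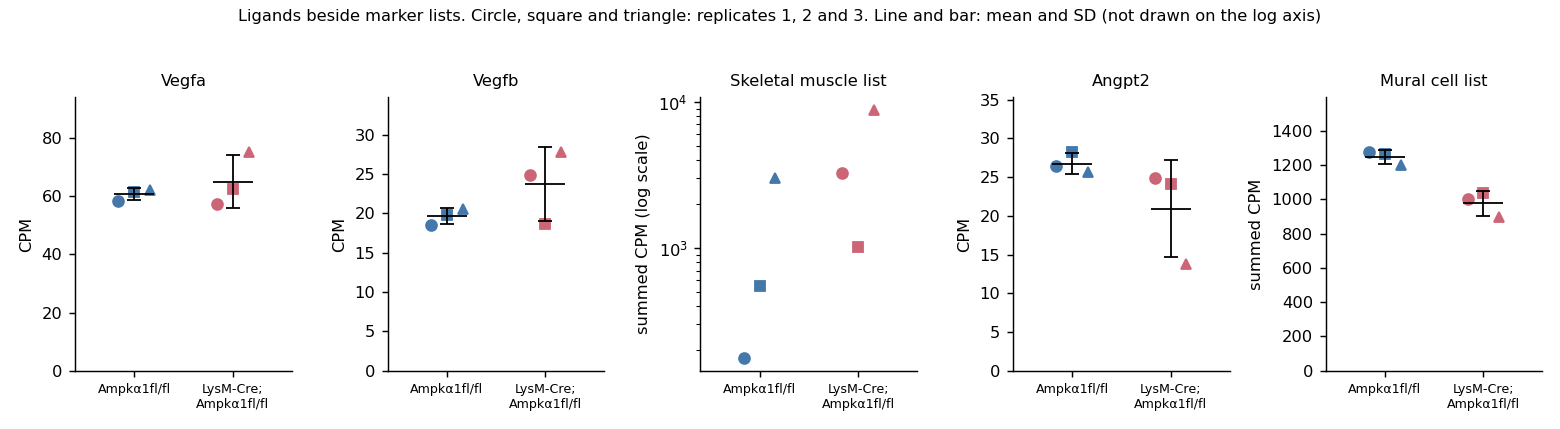
*Vegfa*, *Vegfb* and *Angpt2* in CPM beside the summed CPM of 10 skeletal muscle markers (log axis) and 8 mural cell markers, in the 3 control and 3 LysM-Cre libraries, with mean and SD on the linear axes. In LysM-Cre replicate 3 (triangle), *Vegfa*, *Vegfb* and the muscle sum of 8831 CPM are the highest of the 6 libraries, and *Angpt2* and the mural sum of 896 CPM the lowest.

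Levels were compared between genes on the TPM scale, which corrects for transcript length as well as library total. Over the 6 libraries the mean TPM was 47.1 for *Vegfb*, 45.7 for *Pdgfc* and 45.3 for *Vegfa*, followed by 37.9 for *Pdgfb* and 35.2 for *Pdgfa*. Lower levels were found for *Pdgfd* with 23.5 TPM, *Vegfc* with 15.3, *Angpt2* with 14.7, *Pgf* with 9.44 and *Angpt1* with 8.61 TPM. Of neighbours in this order, the ranges over libraries were separate only between *Pdgfa* and *Pdgfd* and between *Pdgfd* and *Vegfc*. *Vegfa* was nonetheless above *Pdgfb* in 6 of 6 libraries, and *Vegfc*, with at least 13.25 TPM in every library, was above *Pgf*, with at most 10.96 TPM. *Vegfb* had fewer CPM than *Vegfa* in every library and a similar TPM, which divides by transcript length.

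**Figure D4:**
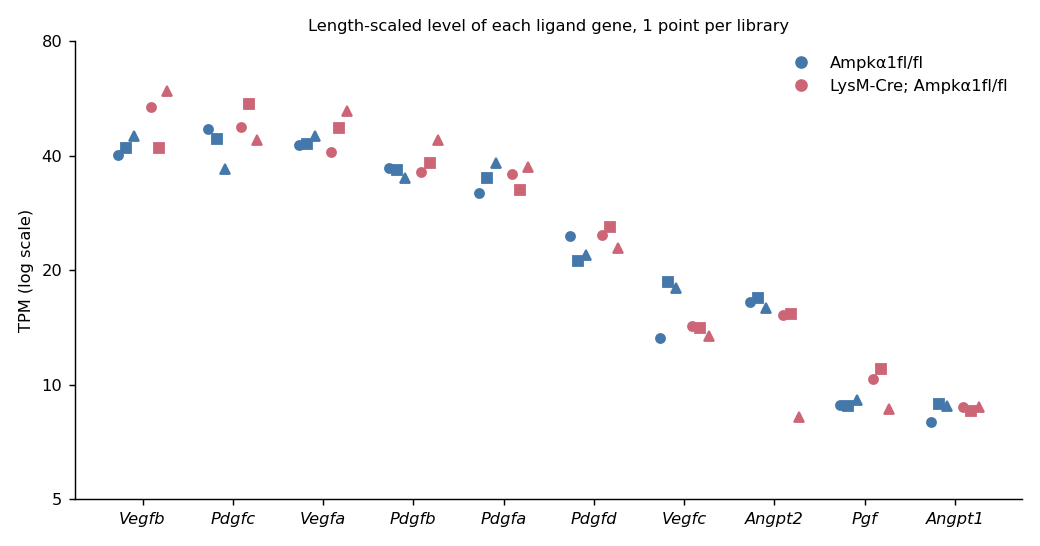
TPM (log axis) of the 10 ligand genes in each of the 3 control and 3 LysM-Cre libraries, 1 symbol per library, ordered by the mean. The genes run from 47.1 TPM for *Vegfb* to 8.61 TPM for *Angpt1*, with steps between *Pdgfa* and *Pdgfd* and between *Pdgfd* and *Vegfc*.

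Summed over each family, the 4 VEGF ligands had 105, 112 and 117 TPM in control and 119, 114 and 134 TPM in LysM-Cre libraries. The 4 PDGF ligands had 141, 137 and 132 TPM in control and 145, 152 and 148 TPM in LysM-Cre libraries, and the 2 angiopoietins 24.4, 25.8 and 24.7 against 24.0, 23.9 and 16.9 TPM. The PDGF sums were higher and the angiopoietin sums lower in all 3 LysM-Cre libraries, by small margins except for the angiopoietin sum of replicate 3. In CPM the groups of each of the 4 PDGF genes overlapped, and 20.4% of all single genes had groups that did not overlap. The family sums were not tested. The ratio of *Angpt2* to *Angpt1* TPM was 2.07, 1.90 and 1.80 in control and 1.74, 1.80 and 0.94 in LysM-Cre libraries. The difference rested on LysM-Cre replicate 3, and the exact two-sided permutation test gave p = 0.1, its smallest possible value.

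The splice forms of *Vegfa* that could be matched to a sequence had similar mean shares of the gene's TPM in both groups. The form with neither exon took 28.4% ± 2.26 in control and 25.4% ± 4.60 in LysM-Cre libraries (SD, n = 3 each). The form with exon 7 took 23.5% ± 1.13 and 25.6% ± 5.71, and the form with both exons 4.22% ± 0.94 and 3.26% ± 2.66. LysM-Cre replicate 3 lay outside the control range for the form with exon 7 (32.1%, controls 22.3% to 24.6%). It also did for the form with neither exon (20.5%, controls 26.1% to 30.6%). Another 43.9% and 45.8% belonged to 3 RefSeq transcripts that were not matched to a sequence, so the shares of the forms are lower limits. The unmatched share was 43.8%, 43.8% and 44.2% in control and 44.6%, 48.2% and 44.5% in LysM-Cre libraries. Its groups did not overlap (exact two-sided permutation test, p = 0.1, its smallest possible value). For *Vegfb* the first form took 59.4% in both groups, with SDs of 2.47 and 4.02, and the second took the other 40.6%.

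*Pdgfd* had 3 matched forms. Of these, 2 carry 18 bases at the start of coding exon 2 that the other lacks, and 1 of the 2 also lacks coding exon 6. The form with the 18 bases and exon 6 took 44.8%, 35.5% and 46.3% of the *Pdgfd* TPM in control and 23.9%, 21.5% and 39.5% in LysM-Cre libraries. LysM-Cre replicate 3 lay within the control range, so the groups overlapped (exact two-sided permutation test, p = 0.2). The form with the 18 bases and without exon 6 took 21.04%, 33.9% and 21.1% in control and 23.5%, 37.6% and 33.8% in LysM-Cre libraries. Together the forms with the 18 bases took 65.8%, 69.3% and 67.4% in control and 47.4%, 59.0% and 73.3% in LysM-Cre libraries. LysM-Cre replicates 1 and 2 lay under the controls and replicate 3 above them (exact two-sided permutation test, p = 0.4). Reads that fit several transcripts were divided by estimation, and the error of that division was not given, so these shares are less certain than the sums per gene.

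**Figure D5:**
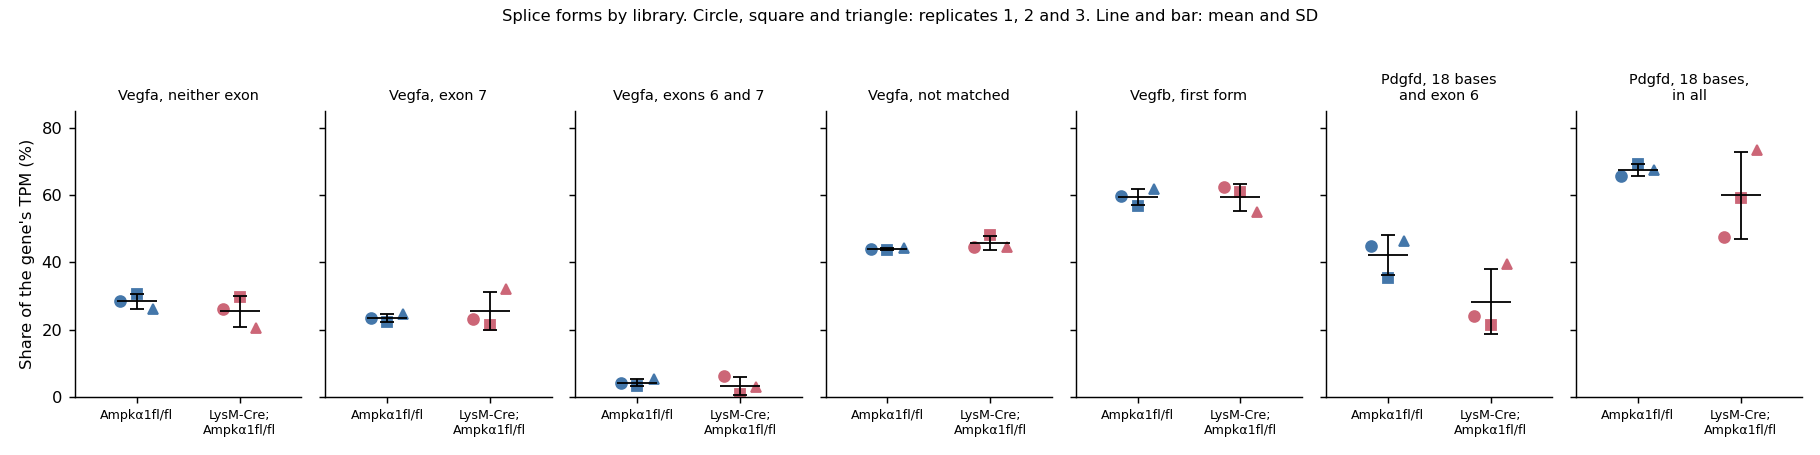
Share of a gene's TPM (vertical axis, percent) in splice forms of *Vegfa*, *Vegfb* and *Pdgfd* in the 3 control and 3 LysM-Cre libraries, with 1 symbol per replicate and a line and bar for mean and SD. All 5 shares of *Vegfa* and *Vegfb* differ little between the group means, and the *Pdgfd* form with the 18 bases and exon 6 has means of 42.2% in control and 28.3% in LysM-Cre libraries, while all forms with the 18 bases have means of 67.5% and 59.9%, with overlapping groups for both.

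Of the 10 receptor and co-receptor genes, 0 passed the adjusted threshold. At an unadjusted p under 0.05 there were 8 of 10, with 3 higher and 5 lower, beside 14.5% of all genes. The groups of 6 did not overlap, beside 20.4% of all genes. DESeq2 called 5 of the 10, *Flt4*, *Nrp1*, *Nrp2*, *Tek* and *Pdgfrl*, and edgeR with the replicate number as a block called 0, beside 0.33% of all genes. The difference between the ligand and the receptor counts was not tested.

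Of the VEGF receptors, *Flt1* and *Kdr* had log2 fold changes of 0.02 ± 0.08 and -0.07 ± 0.09. *Flt4*, the receptor of VEGFC, was at 25.7, 27.5 and 25.7 CPM in control and at 21.5, 19.3 and 18.5 CPM in LysM-Cre libraries (log2 fold change -0.41 ± 0.08, edgeR adjusted p = 0.0851). The neuropilins had opposite signs. *Nrp1* was at 187, 184 and 177 CPM against 154, 150 and 135 CPM (-0.32 ± 0.06, edgeR adjusted p = 0.0869). *Nrp2* was at 151, 132 and 143 CPM against 211, 165 and 185 CPM (0.40 ± 0.10, edgeR adjusted p = 0.137). Every LysM-Cre library lay under the controls for *Flt4* and *Nrp1*, beside 11.4% of all genes, and above them for *Nrp2*, beside 8.94%.

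Of the PDGF receptors, *Pdgfra* had a log2 fold change of -0.20 ± 0.08 and *Pdgfrb* of 0.31 ± 0.12, with overlapping groups for both (edgeR adjusted p = 0.322 and 0.299). *Pdgfrl*, which encodes a secreted protein related to the PDGF receptors, was at 173, 200 and 208 CPM in control and at 275, 255 and 273 CPM in LysM-Cre libraries (0.47 ± 0.08, edgeR adjusted p = 0.0597). *Tek*, the angiopoietin receptor, was at 66.0, 70.4 and 63.3 CPM in control and at 53.6, 54.2 and 51.2 CPM in LysM-Cre libraries (-0.33 ± 0.06, edgeR adjusted p = 0.0664). *Tie1*, its orphan partner, was at 87.9, 89.2 and 81.6 CPM against 78.7, 66.0 and 73.2 CPM (-0.25 ± 0.08, edgeR adjusted p = 0.203). All LysM-Cre libraries lay under the controls for *Tek* and *Tie1* and above them for *Pdgfrl*. Of all genes, 11.4% were lower and 8.94% were higher in all LysM-Cre libraries.

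The markers of the cells that carry these receptors were read beside them. The 10 blood endothelial markers summed to between 852 and 944 CPM in control and between 830 and 868 CPM in LysM-Cre libraries, with 8 negative log2 fold changes, a median of -0.08 and 0 called. The 6 lymphatic markers summed to between 236 and 255 CPM in control and between 160 and 212 CPM in LysM-Cre libraries, with 5 negative, a median of -0.56 and 0 called. At an unadjusted p under 0.05 there were 3 of these 6, all lower, beside 14.5% of all genes. *Lyve1* had an adjusted p of 0.0664 in edgeR and was the 1 lymphatic marker called with the replicate block (adjusted p = 0.0490). *Pdpn* was the 1 with a positive log2 fold change (0.09 ± 0.11). None of these markers was at 0 in all libraries, and their part in the receptor values was not tested.

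Other genes of the pathway were read from lists by role. Of 9 genes that process the ligands, 0 were called and the median log2 fold change was 0.04. At an unadjusted p under 0.05 there were 4, beside 14.5% of all genes. Those with the smallest p were *Plau* (urokinase, -0.46 ± 0.11), *Pcsk6* (a proprotein convertase, -0.41 ± 0.11) and *Ctsd* (cathepsin D, 0.32 ± 0.10), with edgeR adjusted p of 0.117, 0.145 and 0.224. Of 15 other angiogenic ligands and modulators tested, *Angptl4* was the 1 called, beside 0.898% of all genes, and the median was 0.01. *Angptl4* encodes a secreted inhibitor of lipoprotein lipase that also acts on vessels. It was at 53.8, 55.1 and 60.6 CPM in control and rose to 163, 97.1 and 120 CPM in LysM-Cre libraries, without overlap (log2 fold change 1.17 ± 0.18, edgeR adjusted p = 0.0450, or 0.0634 with the replicate block). When 1 library was left out its adjusted p ran from 0.0251 to 0.209, and it was called only without LysM-Cre replicate 2. *Vegfd* and *Angpt4* belong to the same families as the 10 ligands and are named here for that reason, after their values were seen. *Vegfd* was at 8.04, 8.14 and 5.15 CPM in control and at 4.33, 4.87 and 4.05 CPM in LysM-Cre libraries (-0.69 ± 0.21, edgeR adjusted p = 0.193), and *Angpt4*, with 3 to 11 reads a library, was not tested.

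*Vegfa* is a textbook target of the hypoxia response, so 18 further genes of that response were examined. *Bnip3*, a mitophagy receptor, was the only one called. It was at 42.0, 42.3 and 43.1 CPM in control and rose to 62.6, 58.8 and 63.7 CPM in LysM-Cre libraries (log2 fold change 0.54 ± 0.05, edgeR adjusted p = 0.0134, or 0.0525 with the replicate block). When 1 library was left out its adjusted p ran from 0.0189 to 0.0985, and it stayed under 0.05 only without LysM-Cre replicate 2 or 3. The list as a whole went both ways, with 10 positive and 8 negative log2 fold changes and a median of 0.02, beside 0.33% of all genes called higher. At an unadjusted p under 0.05 there were 9 of 18, with 5 higher and 4 lower, beside 14.5% of all genes. The groups of 10 did not overlap, beside 20.4% of all genes.

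Among the cells that can make these ligands, the 9 macrophage markers summed to between 978 and 1022 CPM in control and between 617 and 821 CPM in LysM-Cre libraries. Of these, 7 had a negative log2 fold change, the median was -0.24, and 0 were called. At an unadjusted p under 0.05 there were 4 of 9, all lower, beside 14.5% of all genes. For 5 of 9 all LysM-Cre libraries lay under the controls, beside 11.4% of all genes. DESeq2 called 3 of the macrophage markers, beside 4.77% of all genes. The 5 platelet markers tested were all negative, with a median of -0.78 and 0 called. The list of 7 summed to between 47.6 and 62.8 CPM in control and between 30.7 and 42.7 CPM in LysM-Cre libraries. Most of that sum was *Pf4*, at 47.8, 48.2 and 35.6 CPM in control and at 28.8, 33.7 and 24.8 CPM in LysM-Cre libraries. Few reads were found for *Ppbp*, with 11 to 29 a library, and *Gp1ba*, with 3 to 23. Platelets store PDGF as protein, which these data do not measure. Of 6 erythroid markers 5 were called lower, beside 0.898% of all genes called in either direction. Among the 5 was the globin *Hbb-bs* with a log2 fold change of -1.55 ± 0.17 (edgeR adjusted p = 0.0191). With the replicate block *Hbb-bs* was the 1 erythroid marker still called (adjusted p = 0.0466), and between 0 and 4 were called when 1 library was left out. The 8 tendon markers had a median of 0.11 with 0 called. None of the markers was at 0 in all libraries, and their part in the ligand values was not tested.

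The genes whose log2 CPM over the 6 libraries most resembled the most abundant ligand of each family are given as a description, without a test, since each was the best of 14261 genes and the libraries share 2 groups. For *Vegfb* they were *Myo18a*, *Etfdh* and *Parp10*, with Pearson's r of 0.997, 0.995 and 0.992. For *Pdgfc* they were *Hectd2*, *Pum2* and *Zfp472*, with r of 0.997, 0.997 and 0.995. For *Angpt2* they were *Mrgprx2*, *Rapgef5* and *Rtl5*, with r of 0.998, 0.998 and 0.997. An r above 0.95 was reached by 118, 41 and 67 genes in turn. The *Vegfb* group shared its high values in LysM-Cre replicates 1 and 3, and the *Angpt2* group its low value in LysM-Cre replicate 3.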

How the data were processed

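RNA sequencing was performed on tendon tissue of 3 control and 3 *LysM-Cre; Ampkα1 fl/fl* mice at BGI. For each of 65053 RefSeq transcripts the authors deposited an estimated count, not normalized, and TPM, a length-corrected value that sums to an equal total in every library. The authors also deposited a normalized count, a signal scaled by 1 factor per library, and FPKM values, which were not used here, as were the authors' group averages. The submitters' processing notes name GRCm38.p6. The aligner, the counting tool and whether counting used strand are not given in the sources used here. *Pdgfa*, *Pdgfc* and *Angpt1* share 813, 147 and 737 exon bases with genes on the opposite strand, whose reads may be counted with theirs.

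Estimated counts were summed per gene and rounded (18099 genes, 18049 with a symbol). Tests were run in R 4.3.3 with edgeR 4.0.16 (TMM, filterByExpr, quasi-likelihood F test, threshold 0.05), which gave 14261 genes and was tested on simulated data. CPM are scaled by TMM. An SE was taken as the log2 fold change over the root of its F statistic, and exact tests of genes used log2(CPM + 0.5). Splice forms were matched by RefSeq accession to GENCODE transcripts of GRCm38, and forms with identical counts were merged. The alternatives were DESeq2 1.42.0, RLE and upper-quartile scaling, no filter or at least 10 counts in every library, a muscle covariate, limma 3.58.1 on log2(TPM + 0.1) and log2(TPM + 1), the replicate block, and leaving out each library. Same-numbered libraries deviated together (r = 0.184, 0.118 and 0.31), so the replicate block used the numbers, taken from the labels. The main edgeR fit and the exact tests did not use the numbers and were unpaired. Control replicate 1 correlated more with LysM-Cre replicate 2 (r = 0.501), and control replicate 2 slightly more with LysM-Cre replicate 3 (r = 0.127), than with the library of its own number. The labels do not say that a number marks a litter or day.

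The ligands and the gene lists were chosen with earlier results of these data known. The genes named were all ligands and receptors, the called genes of the other pathway lists or otherwise the 3 with the smallest p, up to 3 called marker genes, *Prkaa1*, *Lyz2*, and the 3 genes most like the most abundant ligand of each family. Outside this rule, *Vegfd*, *Angpt4*, *Lyve1*, *Pdpn*, *Pf4*, *Ppbp* and *Gp1ba* were named after their values were seen. *Col1a1* and *Tnmd* were also named outside the rule, as examples of the tendon markers. Symbols came from the RefSeq annotation, and all 127 listed genes were matched. The 3 mice of a group were separate animals according to the study's methods.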

Additional observations from a re-analysis of the deposited data

How the results depend on the processing

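None of the 10 ligand genes was called under any of the 15 alternatives, and the smallest adjusted p among them was 0.0791, for *Vegfb* without LysM-Cre replicate 2. Log2 fold changes near 0 changed sign. *Vegfa* ranged from -0.0179 to 0.18, *Pdgfa* from -0.0699 to 0.0771, *Pdgfb* from -0.0133 to 0.15 and *Angpt1* from -0.0176 to 0.0716 when 1 library was left out, *Pdgfa* was 0.0038 with DESeq2, 0.0036 with RLE scaling, 0.0080 with limma on log2(TPM + 0.1) and 0.0078 on log2(TPM + 1), and *Angpt1* was -0.0384 with the muscle covariate. The calls among all genes went from 128 to 680 with DESeq2, 47 with the replicate block, 76 with the muscle covariate, 61 and 68 with limma on log2(TPM + 0.1) and log2(TPM + 1), and from 8 (without control replicate 2) to 276 (without LysM-Cre replicate 2) when 1 library was left out. DESeq2 called 5 receptors, 3 processing genes, 2 other angiogenic genes, 2 hypoxia-response genes, 1 blood endothelial, 3 lymphatic, 2 mural, 3 macrophage, 1 platelet and 1 tendon marker. The replicate block left 0 calls among the other angiogenic genes, 0 among the hypoxia-response genes and 1 among the erythroid markers, added 1 lymphatic marker, and changed no other call of a list. The muscle covariate left 0 of the other angiogenic genes, and limma 0 of these, 2 hypoxia-response genes and 3 erythroid markers at both pseudocounts. No filter and a minimum of 10 counts gave 1 macrophage marker each. With 1 library left out, calls ranged from 0 to 1 for the other angiogenic, hypoxia-response, lymphatic and macrophage lists and from 0 to 4 for the erythroid list. Of 150 log2 fold changes of the ligand genes under alternatives, 139 kept the sign of the value reported. By estimated counts in place of TPM, the control share of the first *Vegfb* form was 62.1% and that of the *Vegfa* forms with exon 7 and with neither exon 26.6% and 30.8%. The cause of these shifts was not tested. Every ligand gene had at least 100 reads in every library.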
